A study of Mus musculus with 24 samples.

Results

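The immediate early genes Arc, Fos, Fosb, Junb, Egr1, Egr3, Npas4, Nr4a1, Nr4a3 and Homer1 are described here in neurons and glia of mice with and without brain vessel calcification. These are 10 of the 32288 genes listed in the count tables. They were taken by symbol, as genes known to be switched on by neuronal activity, and were selected on the UMI counts that earlier work on these data had shown for them in neurons and astrocytes of both regions and genotypes. Their levels by region and genotype in neurons and astrocytes are therefore a description. Where counts of these genes past a threshold are printed for them, the share of all genes stands beside the count and nothing is read from it.

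Single nuclei were sequenced from 24 libraries, which were the deep brain and the cortex of 12 mice. Of these, 6 were mutants homozygous for the Pdgfb ret allele (Pdgfb ret/ret), in which PDGF-B lacks its retention motif, and 6 were controls carrying 1 copy (Pdgfb ret/wt), so that every mouse held at least 1 ret allele. The deep brain (pallidum, thalamus, hypothalamus, midbrain and pons) is the part in which mutants form calcifications, and the cortical samples (cerebral cortex and hippocampus) stay free of them. The allele is carried in every cell of the body, and the labels name no treatment.

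The mice were female apart from control 6, a male. By the labels, mice 1, 2, 3 and 4 of each genotype were 5 months and 3 days, 5 months, 5 months and 18 days, and 4 months and 24 days old. Mutant 5 and control 6 were 4 months and 7 days old, and mutant 6 and control 5 were 4 months and 9 days old. The mice were anaesthetized with ketamine and xylazine and perfused with cold buffer before dissection, so the levels below are those at the end of anaesthesia, with no stimulus named.

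Immediate early genes are transcribed within minutes of a burst of firing, from factors that are already in the cell. Calcium that enters through NMDA receptors and voltage-gated channels activates kinases, which phosphorylate CREB, SRF partners and MEF2 at their promoters and enhancers. Most of the products are themselves transcription factors (Fos, FosB and JunB of AP-1, Egr1 and Egr3 with zinc fingers, Npas4 of the bHLH-PAS family, and the orphan nuclear receptors Nr4a1 and Nr4a3), and 2 act at the synapse. Arc protein drives endocytosis of AMPA receptors, and Homer1 encodes scaffold proteins that bind group I metabotropic glutamate receptors, with a short activity-induced form (Homer1a). Npas4 is regarded as the member most restricted to neurons, whereas Fos, Junb, Egr1 and Nr4a1 also respond to growth factors and stress in glia.

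Libraries held 64736053 to 96459036 UMIs (unique transcript molecules) in the deep brain and 23625232 to 95605387 in the cortex. Of 127519 and 109705 barcodes, 124958 and 79967 nuclei passed the limits on genes and mitochondrial UMIs. The median depth per nucleus was 3547 to 7315 UMIs in the deep brain and 804 to 8054 in the cortex, where 7 libraries (controls 1, 3 and 4 and mutants 1 to 4) stood apart with medians below 1500. Libraries shared at most 246 barcodes, or at most 2.37% of the smaller library. Clusters were named from marker lists, with the 10 genes and related genes kept out of the clustering, and gave 30521 glutamatergic neurons, 26294 GABAergic neurons and 10477 astrocytes in the deep brain against 17201, 7821 and 1768 in the cortex. In the deep brain, the summed level of 6 glutamatergic markers was 638 to 961 CPM in glutamatergic and 46.1 to 117 in astrocytic nuclei, and that of 7 astrocyte markers was 406 to 730 and 12540 to 16232. Deep brain dissections also held striatal projection neurons, and cortical dissections held striatal projection neurons and, in 117 nuclei, thalamic neurons. CPM is a gene's scaled share of all UMIs of a cell class in a library. It serves to compare libraries for 1 gene and is not compared between genes.

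The genes lie on 9 chromosomes of GRCm38, with Arc and Nr4a1 on chromosome 15, which also holds Pdgfb. All are protein coding. Junb overlaps 1 other annotated gene, on the opposite strand, and Homer1, the longest, overlaps 2. The table counts a gene as a whole, introns included, so short and long Homer1 transcripts cannot be told apart. RefSeq (GRCm38.p6) gave windows of 250 bases before the start site for 7 of the genes used here. Windows for 5 of them are shown because they hold repeats of TGACG, the core of the cAMP response element through which CREB acts. The Fos window (chr12:85473640-85473889, plus strand) ends just before the annotated gene, that of Npas4 (chr19:4989972-4990221, minus strand) lies inside the first bases of the annotated gene, those of Nr4a1 (chr15:101266596-101266845, plus strand) and Homer1 (chr13:93303507-93303756, plus strand, the first of 2 RefSeq starts) lie within the annotated span, and that of Nr4a3 (chr4:48045055-48045304, plus strand) crosses its start. Capitals mark TGACG on either strand (CGTCA when read on the printed one).
Fos: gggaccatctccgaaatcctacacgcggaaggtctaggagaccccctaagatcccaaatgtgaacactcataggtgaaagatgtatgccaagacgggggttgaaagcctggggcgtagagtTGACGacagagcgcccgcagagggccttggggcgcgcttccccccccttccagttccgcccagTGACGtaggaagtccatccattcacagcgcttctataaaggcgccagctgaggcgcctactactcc
Npas4: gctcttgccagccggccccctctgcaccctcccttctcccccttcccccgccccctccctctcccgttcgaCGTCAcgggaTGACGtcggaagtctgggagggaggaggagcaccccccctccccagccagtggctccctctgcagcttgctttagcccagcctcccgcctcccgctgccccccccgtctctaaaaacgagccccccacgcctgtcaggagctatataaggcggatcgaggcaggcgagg
Nr4a1: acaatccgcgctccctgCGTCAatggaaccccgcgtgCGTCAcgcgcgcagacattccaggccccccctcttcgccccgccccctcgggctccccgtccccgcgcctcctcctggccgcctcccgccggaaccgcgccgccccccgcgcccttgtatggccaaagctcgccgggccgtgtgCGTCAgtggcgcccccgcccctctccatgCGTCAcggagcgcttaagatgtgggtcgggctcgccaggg
Nr4a3: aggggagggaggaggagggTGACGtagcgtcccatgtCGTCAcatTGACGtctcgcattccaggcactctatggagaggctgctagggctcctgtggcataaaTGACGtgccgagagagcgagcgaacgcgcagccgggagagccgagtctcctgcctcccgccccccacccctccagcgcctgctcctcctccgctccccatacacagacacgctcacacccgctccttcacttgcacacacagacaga
Homer1: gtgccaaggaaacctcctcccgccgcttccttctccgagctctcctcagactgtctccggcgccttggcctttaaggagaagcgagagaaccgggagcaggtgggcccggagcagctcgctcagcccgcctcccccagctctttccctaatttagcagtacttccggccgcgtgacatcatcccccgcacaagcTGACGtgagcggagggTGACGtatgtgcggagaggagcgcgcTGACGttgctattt

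TGACG occurred 2 times in the windows of Fos and Npas4, 4 times in those of Nr4a1 and Nr4a3, 3 times in the first Homer1 window, 1 time each in those of Fosb and Junb, and 0 times in the second Homer1 window. Of 32851 RefSeq windows of this kind, 17.8% held at least 1 match and 3.9% held 2 or more. The palindrome TGACGTCA, the AP-1 sequence TGANTCA, the serum response CArG box and the Egr sequence GCGTGGGCG had 0 matches in the same windows, and 1.55%, 6.75%, 1.47% and 0.536% of all windows held them. These are letters within 250 bases only, and say nothing of binding.

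In the deep brain, the mean levels of the 10 genes were higher in both neuron classes than in astrocytes and oligodendrocytes, over both genotypes together. In mutants alone, Arc averaged 15.0 ± 3.21 CPM in oligodendrocytes, 13.7 ± 7.23 in glutamatergic and 15.4 in GABAergic neurons. Over the 12 deep brain libraries, Npas4 averaged 23.5 CPM in glutamatergic and 19.5 in GABAergic neurons, against 1.56 in astrocytes and 1.98 in oligodendrocytes. Homer1 averaged 250 and 238 CPM in the neurons against 61.1 and 67.4 in these glia. Arc was 38.0 ± 33.9 CPM in glutamatergic neurons (SD over 12 libraries) and 19.7 ± 11.0 in GABAergic neurons. It was 18.8 ± 5.4 in oligodendrocytes, a spread that overlapped the GABAergic one, and 6.06 ± 4.49 in astrocytes. Differences between classes within libraries were not tested. So the same libraries had about equal Npas4 in both kinds of glia, but an Arc level in oligodendrocytes that lay above that in astrocytes. In the cortex Arc was 130 ± 42.6 CPM in glutamatergic neurons, 31.1 ± 8.07 in oligodendrocytes, 30.1 ± 9.59 in GABAergic neurons and 13.2 ± 7.25 in astrocytes. Fos averaged 22.8 CPM in cortical astrocytes and 21.9 in cortical GABAergic neurons.

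Junb, an AP-1 subunit, was high in microglia. In the deep brain it reached 52.4 ± 13.6 CPM, above its level in glutamatergic neurons of the same libraries (24.6 ± 10.9), and in cortical microglia it was 65.1 ± 21.1, close to the 64.0 ± 27.9 of cortical glutamatergic neurons. Nr4a1, an orphan receptor, stood at 33.2 ± 8.53 CPM in oligodendrocyte precursors of the deep brain, against 9.28 ± 4.84 in mature oligodendrocytes. Fos was 13.5 ± 7.78 CPM in deep brain astrocytes and 6.93 ± 2.92 in oligodendrocytes, spreads that overlap.

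At an equal depth, most nuclei held no UMI of a given gene. After thinning each nucleus to 1000 UMIs, Arc was found in 3.26 ± 2.95% of deep brain glutamatergic nuclei (SD over 12 libraries), in 1.77 ± 1.07% of GABAergic, in 1.95 ± 0.662% of oligodendrocyte and in 0.547 ± 0.415% of astrocyte nuclei. In the cortex the shares for Arc were 11.0 ± 3.04% in glutamatergic and 3.29 ± 1.69% in oligodendrocyte nuclei. Homer1 was found in 16.2 ± 5.32% of deep brain and 35.2 ± 4.16% of cortical glutamatergic nuclei, the widest of the 10. Without thinning, at median depths of 11129 UMIs per glutamatergic and 2670 per oligodendrocyte nucleus of the deep brain, Arc was found in 16.3 ± 10.4% and 5.11 ± 1.45%, and Homer1 in 64.9 ± 7.34% of deep brain and 92.8 ± 2.48% of cortical glutamatergic nuclei. Npas4 was at 0.163 ± 0.194% in deep brain astrocytes and 0.19 ± 0.15% in oligodendrocytes after thinning, classes in which this gene is not known to be active. The part of free RNA in these shares was not tested. Some nuclei were far above the rest. In deep brain glutamatergic neurons the top 1% of nuclei held 23.5% of the Arc UMIs, 34.7% of the Npas4 UMIs and 18.7% of the Homer1 UMIs, with up to 33, 28 and 179 UMIs in 1 nucleus.

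**Figure D1:**
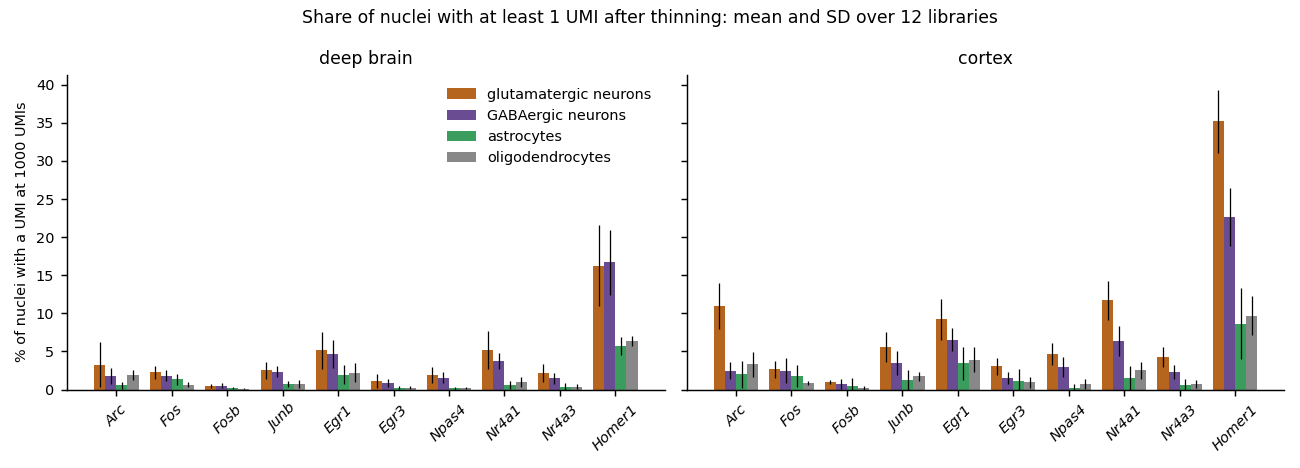
Share of nuclei (percent, vertical axis) with at least 1 UMI of each gene after thinning to 1000 UMIs, by cell class and region. Bars are means and lines the SD over 12 libraries. Homer1 reaches 35.2 ± 4.16% of cortical glutamatergic nuclei, and Npas4 stays near 0 in astrocytes and oligodendrocytes.

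Neuron groups within a class differed widely. Only libraries with at least 20 nuclei of a group entered its mean, so some groups rest on fewer than 12 libraries. Within the glutamatergic nuclei of the cortex, the deep-layer group had the highest Arc level (205 ± 59.0 CPM over 12 libraries), followed by the group led by Gm20752 and Cpne9 (148 ± 51.9) and the group led by Ndst4 and Tafa1 (59.0 ± 25.8), whereas dentate granule neurons had 17.1 ± 14.2. The deep brain groups given here are only part of the class. The group led by Cdh23 and Spp1 stood at 32.8 ± 12.5 CPM, dentate granule neurons at 20.6 ± 33.3, and thalamic neurons at 2.76 ± 1.85. The spreads of the 2 leading cortical groups overlapped, as did those of the deep brain groups at 32.8 and 20.6. Differences between groups within libraries were not tested.

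Fos did not follow Arc across neuron groups. Thalamic neurons of the deep brain, low in Arc, had 28.2 ± 11.5 CPM of Fos. The highest Fos levels were in Adarb2 interneurons, at 47.8 ± 28.8 CPM in the cortex and 41.5 ± 22.9 in the deep brain, where Arc was 17.9 ± 19.7 and 4.99 ± 6.44. Lhx6 interneurons had less Fos (18.8 ± 8.34 and 22.1 ± 12.2). In striatal projection neurons, Arc was 39.1 ± 13.5 CPM in cortical and 38.7 ± 22.0 in deep brain dissections, and Homer1 was 539 ± 82.1 and 467 ± 117, the highest of the GABAergic groups. Nr4a3 was highest in the cortical group led by Ndst4 and Tafa1 (66.0 ± 21.5 CPM). A cholinergic cluster counted among the deep brain glutamatergic neurons had 7.67 ± 7.67 CPM of Fos and 38.2 ± 9.03 CPM of Nr4a3. These levels are a description over libraries of both genotypes, under the same limit of 20 nuclei of a group.

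**Figure D2:**
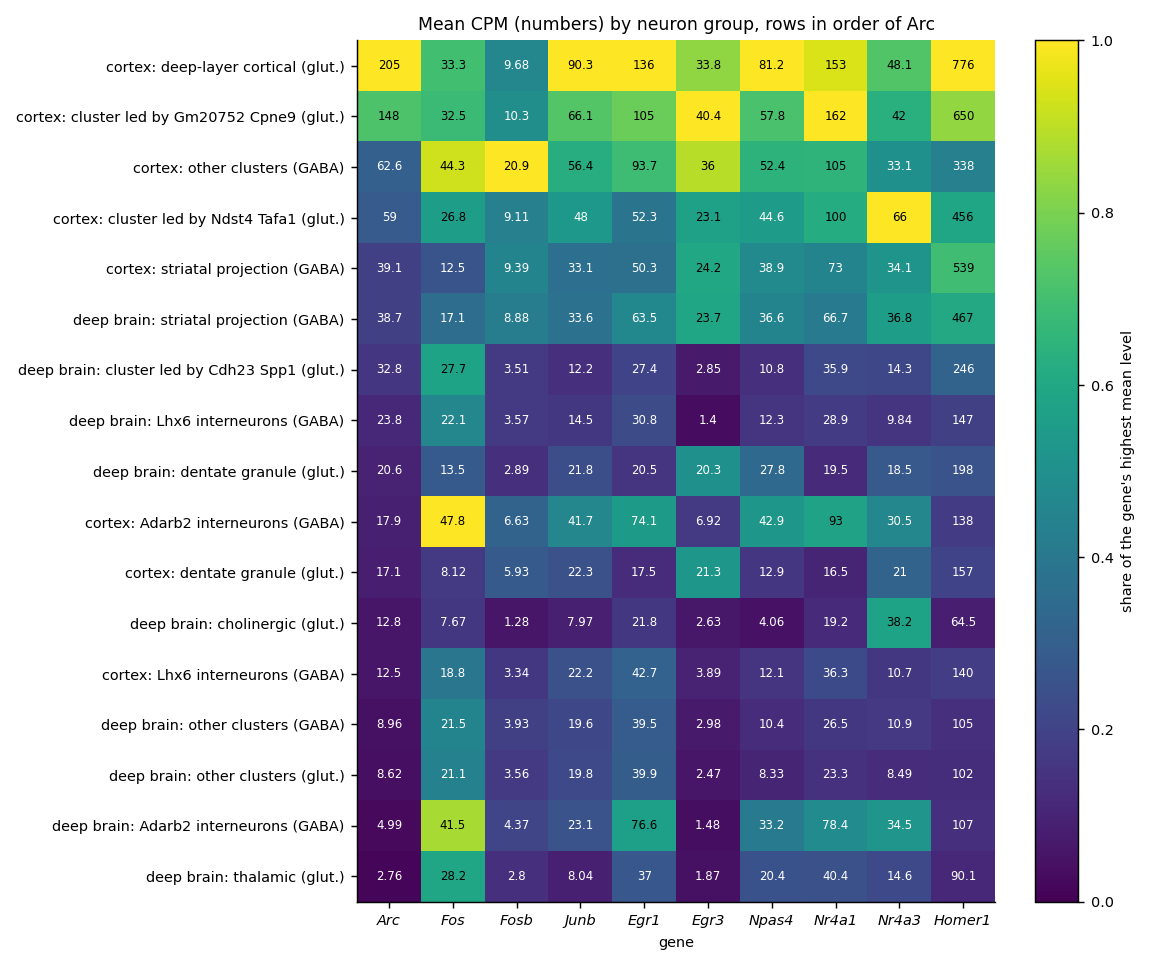
Mean level of each gene (CPM over libraries with at least 20 nuclei of the group) in the neuron groups of both regions (rows, in order of Arc). Numbers are means and colours the share of the gene's highest group. Arc peaks in cortical deep-layer neurons (205 CPM) and Fos in Adarb2 interneurons (47.8 CPM). Thalamic neurons of the deep brain have 2.76 CPM of Arc, far below its peak, and 28.2 CPM of Fos.

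In glutamatergic neurons of the deep brain, all 10 genes averaged lower in mutants than in controls. Arc ranged from 30.3 to 115 CPM in the 6 controls (median 55.5) and from 7.59 to 27.3 in the 6 mutants (median 11.5), so the groups did not overlap. Egr1 ranged from 47.4 to 106 CPM (median 68.2) and from 25.9 to 41.2 (median 38.1), again without overlap. Arc averaged 62.4 ± 32.4 against 13.7 ± 7.23 CPM and Egr1 73.2 ± 23.2 against 35.0 ± 7.19. The log2 differences (mutant minus control, edgeR, ± SE) were -2.19 ± 0.38 for Arc and -1.07 ± 0.21 for Egr1. These 2 of the 10 genes were below in every mutant, as were 0.864% of all 18277 genes in the fit. The rule chose the genes with such differences in view, so nothing is read from that count.

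The other 8 genes overlapped between genotypes. Among the transcription factors, Egr3 ranged from 4.45 to 27.5 CPM in controls and 2.54 to 8.29 in mutants (log2 -1.58 ± 0.40), Nr4a1 from 40.2 to 122 and 32.2 to 47.7 (-1.005 ± 0.23), and Junb from 20.0 to 49.8 and 11.9 to 21.4 (-0.94 ± 0.21). Npas4 spanned 10.5 to 46.5 CPM in controls and 10.7 to 20.1 in mutants (-0.92 ± 0.28), and Nr4a3 11.6 to 56.5 and 12.5 to 30.4 (-0.82 ± 0.32). Fosb and Fos had the smallest differences, -0.62 ± 0.30 and -0.52 ± 0.21. For Npas4, Nr4a3, Fosb and Fos the lowest control lay below the lowest mutant. Homer1 spanned 196 to 496 CPM in controls and 112 to 259 in mutants (-0.99 ± 0.27). The median over the 10 genes was -0.96, beside a median of -1.36e-05 over all genes in the fit.

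Of the 10 genes, 0 passed an adjusted p of 0.05 in edgeR, where 0.0328% of all genes did so with lower levels, 9 had an unadjusted p under 0.05 (18% of all genes did), and DESeq2 called 7, all lower (2.43% of all genes were called lower). With a block of the mouse number edgeR called 6 of the 10, all lower, where it called 4.28% of all genes, and with a block of the same labelled age Arc and Egr3, where it called 1.78%. The difference for Arc was between -2.53 and -1.89 when any 1 library was left out, and that for Egr1 between -1.18 and -0.91. With classes set from marker UMIs, it was smaller for Arc (-1.31), Egr3 (-1.04), Egr1 (-0.85), Npas4 (-0.77), Nr4a1 (-0.75), Homer1 (-0.59), Fosb (-0.41) and Fos (-0.12). The lowest-to-highest spread among controls is wide, with controls 1 and 5 at the top and controls 2 and 3 at the bottom for Arc.

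**Figure D3:**
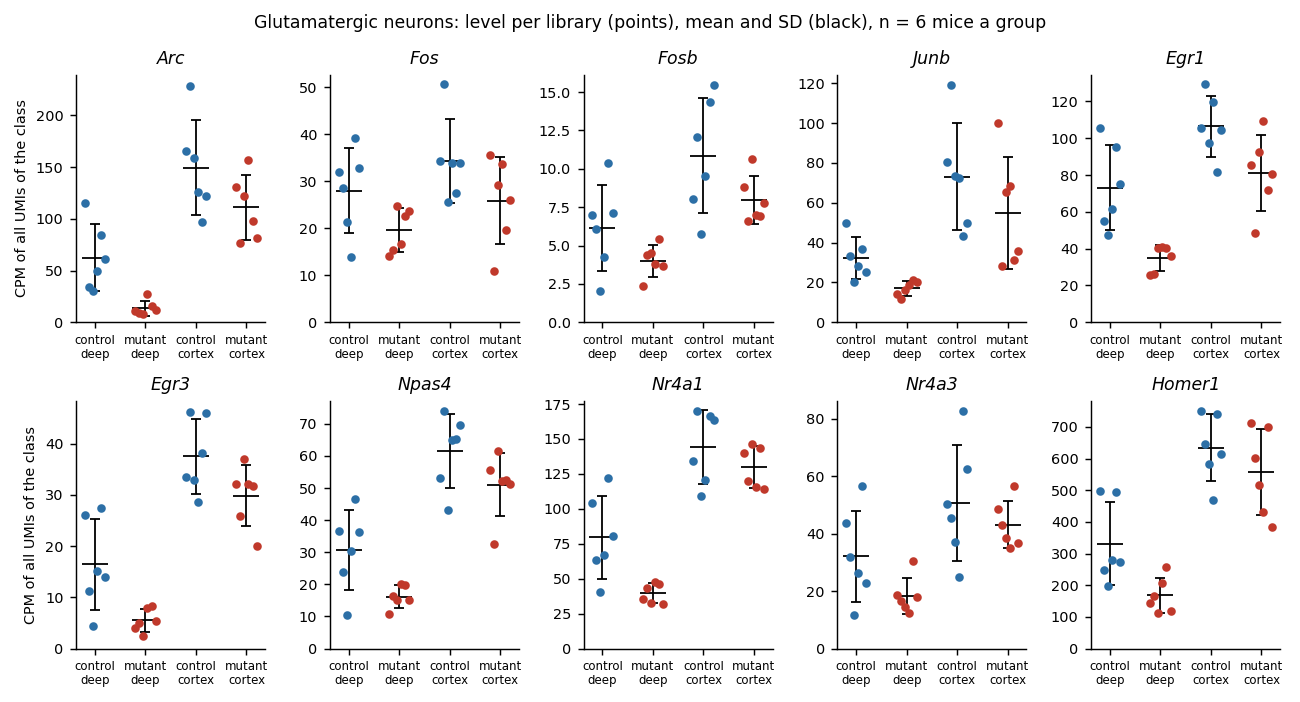
Level of each gene (CPM) in glutamatergic neurons, 1 point per mouse, with the mean and SD of 6 controls and 6 mutants, for the deep brain and the cortex. In the deep brain the Arc points of controls (30.3 to 115) and mutants (7.59 to 27.3) do not overlap, and in the cortex all genes overlap.

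**Figure D4:**
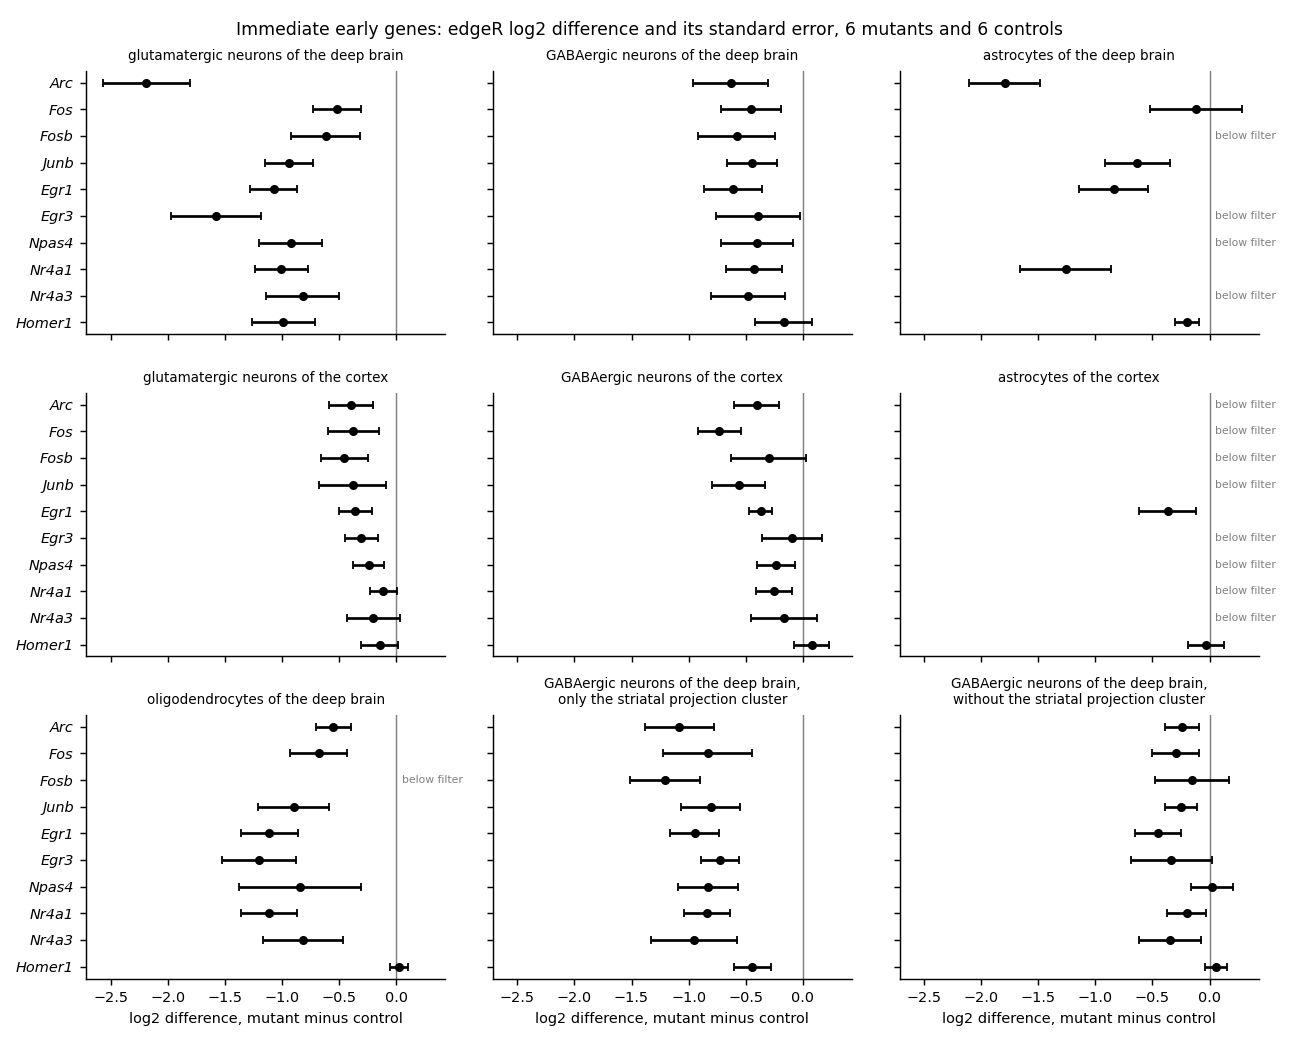
Difference between mutants and controls (log2, edgeR, with SE) for each gene in glutamatergic neurons, GABAergic neurons and astrocytes of both regions, in deep brain oligodendrocytes, and in deep brain GABAergic neurons with only and without the striatal projection cluster. Genes too low for a fit are named as below the filter. Deep brain glutamatergic neurons reach -2.19 for Arc, and each gene lies nearer to 0 in glutamatergic neurons of the cortex, whereas Fos in GABAergic neurons is farther from 0 in the cortex (-0.73) than in the deep brain (-0.45).

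The kinds of neuron in the class differed between the genotypes as well. Clusters that matched no list of neuron kinds, other than groups named by their leading genes, are called clusters of no list. They made up 54.3 ± 10.4% of the glutamatergic nuclei of the deep brain in mutants and 36.0 ± 14.4% in controls. Thalamic neurons made up 21.4 ± 3.80% and 16.9 ± 2.98%, and dentate granule neurons 2.74 ± 4.19% and 7.15 ± 5.54%. The first 2 of these had low levels of Arc in every mouse. In the clusters of no list, Arc was 6.62 to 12.1 CPM in controls (median 11.3) and 5.82 to 9.02 in mutants (median 6.77), and in thalamic neurons 1.58 to 7.10 (3.85) and 0.379 to 2.58 (1.74), with overlap in both. These groups are only part of the class. Sums over the whole class do not separate a smaller share of neurons rich in Arc from less Arc RNA per neuron.

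Egr1 was less uneven over these kinds of neuron. It was 45.6 ± 10.3 CPM in controls and 34.3 ± 8.63 in mutants in the clusters of no list, and 42.1 ± 15.1 and 31.9 ± 9.81 in thalamic neurons, with ranges that overlapped in both. Fos was 22.5 ± 6.96 CPM in controls and 19.6 ± 5.47 in mutants in the clusters of no list, and 33.7 ± 12.0 and 22.7 ± 8.61 in thalamic neurons. Cholinergic neurons had Arc at 13.3 ± 10.9 and 12.3 ± 8.36 CPM. These values within neuron kinds are a description.

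GABAergic neurons of the deep brain gave log2 differences nearer to 0 than glutamatergic neurons did, all negative. Arc ranged from 12.1 to 49.2 CPM in controls (median 20.6) and from 11.2 to 22.3 in mutants (median 14.7), and Egr1 from 32.1 to 93.8 (54.6) and from 24.9 to 49.1 (39.4). All 10 genes overlapped between genotypes, where 0.137% of all genes did not. Log2 differences ran from -0.63 ± 0.33 for Arc and -0.61 ± 0.25 for Egr1 to -0.17 for Homer1, with a median of -0.45, and 0 were called (0.00573% of all genes lower), 1 having an unadjusted p under 0.05 (6.42% of all genes did) and DESeq2 calling 0 (0.149% of all genes lower). Control 1 weighed heavily on these values, and without it Arc was at -0.25, Egr1 at -0.38, Egr3 at -0.12 and Homer1 at 0.004.

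Striatal projection neurons, the spiny neurons that make up most of the striatum, formed 24.1% to 52.0% of the GABAergic nuclei in mutants and 5.76% to 45.4% in controls. Alone, a division added after the data were seen, they gave larger differences for all 10 genes. Fosb was 12.6 ± 5.55 CPM in controls and 5.15 ± 1.72 in mutants (log2 -1.21 ± 0.31), Arc 52.3 ± 23.7 and 25.1 ± 7.53 (-1.08 ± 0.30), and Egr1 83.2 ± 31.4 and 43.8 ± 8.78 (-0.95 ± 0.21). Nr4a3, Nr4a1, Fos, Npas4, Junb and Egr3 lay between -0.95 and -0.73, and Homer1 at -0.44 ± 0.16. Every gene overlapped between genotypes, where 0.132% of all genes did not, and 0 were called in edgeR, where 0.0139% of all genes were with lower levels. In the remaining GABAergic neurons, differences ran from -0.45 ± 0.20 (Egr1) to 0.05 ± 0.09 (Homer1). Of all GABAergic nuclei, Lhx6 interneurons made up 5.34 ± 0.992% in mutants and 9.58 ± 2.15% in controls. Adarb2 interneurons made up 1.12 ± 0.823% and 3.27 ± 1.98%, and clusters of no list 57.1 ± 11.0% and 58.4 ± 17.1%. The part of these shares in the differences was not tested.

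In deep brain astrocytes, Arc ranged from 5.46 to 16.1 CPM in controls (median 8.64) and from 1.61 to 4.76 in mutants (median 2.28), without overlap (log2 -1.79 ± 0.31), as in 0.842% of all genes. The astrocytes of mutants 1 and 2 held 3107086 and 3282649 UMIs of all genes, so the Arc levels there rest on few UMIs. Arc was the 1 gene called of the 6 in the fit, where 1.78% of all genes were called lower, and DESeq2 also called Nr4a1 (2.57% of all genes lower). Nr4a1 was 11.6 ± 7.52 CPM against 4.76 ± 2.27 (-1.26 ± 0.40) and Egr1 25.4 ± 13.7 against 14.1 ± 5.50 (-0.84 ± 0.30). Without control 1, Egr1 was at -0.53, and with classes from marker UMIs Nr4a1 was at -0.45. Junb differed by -0.63, Homer1 by -0.20 and Fos by -0.12 (0.35 in mice 1 to 3, -0.87 in mice 4 to 6, and -0.46 to 0.05 without 1 library), and Fosb, Egr3, Npas4 and Nr4a3 were too low for the fit. Markers of neurons were present in these nuclei, with overlapping spreads. Slc17a7, the cortical glutamate transporter, was 20.3 ± 9.85 CPM in control and 12.9 ± 8.02 in mutant astrocytes, Snap25, a general neuronal gene, 115 ± 21.7 and 106 ± 24.4, Rbfox3, another, 15.5 ± 5.07 and 17.4 ± 5.37, and Gad2, of GABAergic neurons, 40.7 ± 8.53 and 44.7 ± 16.9. The part of RNA from neurons in the astrocyte levels was not tested.

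Deep brain oligodendrocytes were outside the rule that chose the genes, so their differences were tested (edgeR quasi-likelihood test, Benjamini-Hochberg over 13515 genes, 0.429% called lower). They came from the same libraries as the neurons and astrocytes on which the genes were chosen, so the test is not independent of that choice. Egr1 fell, from 17.0 to 52.7 CPM in controls (median 26.7) to 9.77 to 20.8 in mutants (median 12.7), with ranges that overlapped (log2 -1.11 ± 0.25, adjusted p = 0.0359). Nr4a1 fell as well, from 8.00 to 19.4 CPM (median 11.8) to 2.81 to 7.31 (median 6.41), without overlap, as in 0.947% of all genes (-1.11 ± 0.24, adjusted p = 0.0316). The other 7 genes in the fit did not pass. Arc was 22.5 ± 4.53 against 15.0 ± 3.21 CPM (-0.55, adjusted p = 0.0832), Egr3 differed by -1.20 (0.073), Junb by -0.90 (0.171), Fos by -0.68 (0.201), Nr4a3 by -0.82 (0.28), Npas4 by -0.85 (0.509) and Homer1 by 0.03 (0.909), and Fosb was too low. Without control 1, Nr4a3 was at -0.43. DESeq2 called Arc, Egr1, Egr3 and Nr4a1 (1.19% of all genes lower).

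Both calls were near the threshold. Egr1 was lost in 8 of 12 fits without 1 library (without mutants 1, 2, 3 or 5 or controls 1, 2, 5 or 6), with adjusted p between 0.0548 and 0.0916, and Nr4a1 in 6 (without mutants 1, 2 or 3 or controls 1, 2 or 5), between 0.0535 and 0.0887. The Egr1 call was also lost with a block of the mouse number (adjusted p = 0.065) and with a block of the same labelled age (0.0822), and the former called Arc. In these nuclei Slc17a7 was 23.1 ± 9.13 CPM in controls and 14.2 ± 9.97 in mutants, Snap25 140 ± 25.2 and 114 ± 33.4, Rbfox3 16.5 ± 3.66 and 15.4 ± 5.24, and Gad2 43.7 ± 7.80 and 49.6 ± 21.9, and their part in the result was not tested.

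In the cortex, glutamatergic neurons gave small differences, again below 0 for all 10 genes. Arc ranged from 97.1 to 228 CPM in controls (median 142) and from 76.6 to 157 in mutants (median 110), and Egr1 from 81.9 to 129 (105) and from 48.3 to 109 (82.9). All genes overlapped, where 0.251% of all genes did not, and 0 were called (0.0% of all genes lower), with 3 at an unadjusted p under 0.05 (5.45% of all genes were) and 0 called by DESeq2 (0.0257% of all genes lower). The log2 differences ran from -0.45 (Fosb) and -0.40 (Arc) to -0.15 (Homer1) and -0.11 (Nr4a1), with a median of -0.33. In the 7 shallow libraries alone, Fosb (0.105), Egr3 (0.04), Nr4a1 (0.14) and Nr4a3 (0.19) were above 0, and in the 5 deeper ones all 10 genes were below 0. Mice 4 to 6 alone gave -0.02 for Arc. Without control 2, Arc was at -0.24 and Nr4a1 at -0.06, without control 5 Nr4a3 was at 0.01, and without mutant 6 Homer1 was at -0.06. GABAergic neurons of the cortex had Fos at 27.7 ± 7.82 CPM in controls and 16.1 ± 4.37 in mutants (-0.73 ± 0.19) and Homer1 at 333 ± 76.2 and 340 ± 49.2 (0.08), with 0 called (0.0% of all genes lower), 3 at an unadjusted p under 0.05 (9.66% of all genes were) and 0 called by DESeq2 (0.147% of all genes lower). With a block of the mouse number Fos was called lower, where 0.484% of all genes were, and with a block of the same age 0 were (0.227% of all genes lower). Cortical astrocytes, with few nuclei per library and GABAergic markers summing to 34.8 to 846 CPM, had only Egr1 (-0.37 ± 0.25) and Homer1 (-0.03 ± 0.16) in the fit, and 0 were called (0 at an unadjusted p under 0.05 and 0 by DESeq2), where 0.83% of all genes were called lower, 12.5% had an unadjusted p under 0.05 and DESeq2 called 0.988% lower. When any 1 library was left out, Egr1 in cortical astrocytes was between -0.47 and -0.20 and Homer1 between -0.10 and 0.05. Homer1 in cortical GABAergic neurons was then between -0.04 and 0.16. Whether the difference between genotypes differed between regions was not tested.

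Within mice, the cortex had higher levels than the deep brain in glutamatergic neurons. Arc was higher in the cortex in 12 of 12 mice, with a mean log2 ratio of deep brain to cortex of -2.24 ± 1.20 (SD over mice), which was -1.37 ± 1.02 in controls and -3.11 ± 0.57 in mutants. The ratios that follow are over both genotypes. Egr3 (-1.96 ± 1.03), Npas4 (-1.39 ± 0.60), Homer1 (-1.38 ± 0.58), Junb (-1.36 ± 0.75), Nr4a1 (-1.32 ± 0.57) and Fosb (-0.96 ± 0.50) were also higher in all 12, and Nr4a3 and Egr1 in 11. Fos was closest to even (-0.34 ± 0.64, higher in the cortex in 9 of 12). GABAergic neurons ran from -0.18 for Fos, which was higher in the deep brain in 7 of 12 mice, to -0.83 for Npas4, higher in the cortex in 11. In the 7 mice with shallow cortical libraries the Arc ratio was -2.50 and in the 5 others -1.88, and for Fos -0.53 and -0.06. The regions hold different neurons, and their part in these ratios was not tested.

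Other genes, of the pathway and of other influences, were taken from 7 lists with 73 genes, and these were tested in every class. The lists were chosen with earlier results of these data known. In deep brain glutamatergic neurons, 8 of 10 other rapid transcription factors were below 0 (median log2 -0.59), as were 13 of 15 feedback and signalling genes (-0.53), 7 of 9 later effectors such as Bdnf (-0.25) and 15 of 17 upstream regulators such as receptors and CREB partners (-0.13), beside -1.36e-05 over all genes. None passed in edgeR with Benjamini-Hochberg adjustment, in the fit without a block. Unadjusted, 5, 9, 2 and 5 had p under 0.05, where 18% of all genes did, and DESeq2 called 3, 6, 1 and 1, where it called 4.29% of all genes. The nearest were Dusp1, a MAP kinase phosphatase (-0.80, adjusted p = 0.056), Ier5 (-1.42, 0.056) and Nr4a2 (-0.88, 0.081), whereas Egr4 was at -1.22 (0.156). Lists for other influences gave medians of -0.23 for heat shock genes (6 of 7 below 0), -0.16 for clock genes (10 of 10) and -0.09 for glucocorticoid response genes (5 of 6), with 0 called in edgeR, 0, 3 and 1 at an unadjusted p under 0.05, and 0, 3 and 0 called by DESeq2.

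In GABAergic neurons of the deep brain, and in both neuron classes of the cortex, 0 list genes were called in edgeR (8 of 71, 7 of 68 and 14 of 64 had an unadjusted p under 0.05, beside 6.42%, 5.45% and 9.66% of all genes), and DESeq2 called 0 as well. Deep brain astrocytes gave 7 calls among 58 list genes in the fit, where 4.89% of all genes were called in either direction. Inhba, an activin subunit (-1.24, adjusted p = 0.00132), Nr4a2 (-1.40, 0.0365), Dusp1 (-0.73, 0.0252), the MEF2 factors Mef2c (-0.68, 0.017) and Mef2d (-0.39, 0.0274), and the clock repressor Nr1d1 (-0.49, 0.0104) fell, and Grin2b, an NMDA receptor subunit, rose (0.73, 0.00414). Grin2b also rose in cortical astrocytes (0.56, 0.017), as the 1 of 42 list genes called, where 1.67% of all genes were. Leaving out 1 library removed the calls for Nr4a2 and Dusp1 in 6 of 12 fits, for Mef2d in 5 and for Mef2c in 1 (mutant 3), and removed none for Inhba, Nr1d1 or Grin2b. With mice 4 to 6 alone all 7 deep brain calls were lost, with mice 1 to 3 alone those of Dusp1 and Nr4a2, with classes from marker UMIs those other than Inhba and Nr1d1, and in cortical astrocytes Grin2b was lost in 5 of 11 other alternatives. In oligodendrocytes 0 list genes were called in edgeR, with 17 of 64 at an unadjusted p under 0.05 (14.7% of all genes were), and DESeq2 called 3 (3.57% of all genes).

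The genes were found together in single nuclei. Among deep brain glutamatergic nuclei thinned to 1000 UMIs, Arc was found in 19.4 ± 9.03% of those with an Npas4 UMI and in 2.89 ± 2.68% of those without (higher in 12 of 12 libraries). Fosb was found in 5.10 ± 3.06% of nuclei with Fos and 0.392 ± 0.205% of those without (11 of 12). Over 90 ordered pairs, the ratio of such shares ran from 1.73 to 13.0, with a median of 3.76, and in cortical glutamatergic neurons from 1.46 to 10.9 over 81 pairs, with a median of 2.44. At this depth, 70.9% of deep brain and 47.1% of cortical glutamatergic nuclei had 0 of the 10 genes, and 0.443% and 1.10% had 5 or more. In GABAergic nuclei, 73.2% and 62.0% had none and 0.340% and 0.601% had 5 or more. These shares mix kinds of neuron, so part of the ratios may lie in which neurons hold the genes, which was not tested.

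Over the 12 deep brain libraries, Egr4, another Egr factor, had the pattern in glutamatergic neurons most like the mean of the 10 genes among 11874 genes (Pearson r = 0.971), followed by Nap1l1 (0.926), Ppp2r2a (0.921), Ube2ql1 (0.921) and Lmna (0.920). In the cortex Egr4 was again first among 11426 genes (0.890), followed by Rev3l (0.874) and Plekhh3 (0.864). The 10 genes were not all alike. Each against the mean of the other 9, r ran from 0.481 (Fos) to 0.933 (Nr4a1) in the deep brain. In the cortex it ran from 0.082 (Nr4a3) and 0.167 (Homer1) to 0.758 (Fos). These correlations are over libraries of both genotypes, after the mean of each genotype was subtracted, and share depth and dissection.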

How the data were processed

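Single nuclei from 24 libraries (6 mutants and 6 controls, deep brain and cortex of each) were analysed from the UMI counts the authors deposited per gene and nucleus. Per the labels and the study's methods, these counts came from 5′ reads aligned with Cell Ranger 5.0.1 to mm10 with introns and were not normalized. Genotype, region, mouse number, sex and age came from the labels. The 10 genes, the related lists, the marker lists and the comparisons were chosen with earlier results of these data known. They were named because the rule lists them, and list genes were named where they passed the test or lay nearest to it. The rule that named clusters was written after the clusters had been seen.

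Nuclei with more than 500 and fewer than 7000 genes and under 20% mitochondrial UMIs were kept, as in the study's methods. They were clustered per region on 2000 variable genes and 20 components (scanpy 1.11.5, Seurat 5.3.0, resolution 0.2), with 44 genes of interest left out. Results of 1 group of deep brain glutamatergic neurons are not reported here. A cluster took a class from its markers, and in the deep brain 16813 nuclei and in the cortex 43554 stayed unnamed. Counts were summed per library and class, given as CPM, and compared with the edgeR 4.0.16 quasi-likelihood test with Benjamini-Hochberg adjustment at 0.05, over all genes that passed its filter on low counts. DESeq2 1.42.0 was the alternative. Scripts were tested on simulated data. For shares of nuclei, each nucleus was thinned to 1000 UMIs. Intervals are SD over libraries or SE of the fit. Scrublet marked 8.42% of nuclei as doublets, which were kept in the main results and left out in an alternative. It did not work in several cortical libraries, most of them shallow, where it marked almost none or up to 46.8%. Control 2 was among them, though its median was 4597 UMIs per nucleus. Replicate numbers were checked for pairing. The correlations of deviations between same-numbered mice ran from -0.265 to 0.676 and passed 0.1 in 2 to 5 of 6 pairs, and the labels give mice 1 to 4 of both genotypes the same ages but name no shared litter or batch, so the numbers were not treated as pairs. Promoter sequences came from RefSeq and gene positions from GENCODE.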

Additional observations from a re-analysis of the deposited data

Results flagged for a closer look

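Of 120 groups of 6 libraries (a gene, class, region and genotype each), 9 held a library set apart from the others by more than the 95% limit of Dixon's test, where chance alone gives about 1 in 20. All values are CPM. In glutamatergic neurons of the deep brain, Nr4a3 was 30.4 in mutant mouse 5, with the nearest mutant at 18.6. In glutamatergic neurons of the cortex, Fos was 50.7 in control mouse 2 (nearest 34.3) and Npas4 was 32.6 in mutant mouse 2 (nearest 51.4). In GABAergic neurons of the cortex, Egr1 was 31.6 in mutant mouse 2 (nearest 48.1) and Egr3 was 5.36 in control mouse 4 (nearest 15.8), from 20 UMIs. Mutant mouse 2 was thus low for both Npas4 and Egr1 in cortical neurons, in different classes.

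The other 4 rested on few UMIs in astrocytes. In the deep brain, Egr3 was 3.25 in mutant mouse 4 (nearest 1.40), from 13 UMIs. In the cortex, Arc was 32.0 in control mouse 3 (nearest 17.4), from 11 UMIs, and Fos and Egr1 were both 48.1 in mutant mouse 3 (nearest 21.8 and 30.1), each from 12 UMIs.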

How the results depend on the processing

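Genes called over the whole table (7 in glutamatergic and 2 in GABAergic neurons and 627 in astrocytes of the deep brain, 0, 0 and 127 in the cortex, 227 in deep brain oligodendrocytes) depended on the fit, and the cause was not tested. With DESeq2 the counts were 784, 56 and 810, then 7, 68 and 166, and 483. With no filter they were 4 in deep brain and 1 in cortical glutamatergic neurons, 1 in cortical GABAergic neurons and 202 in cortical astrocytes. With a replicate block they were 782, 3 and 790, then 4, 181 and 203, and 210. Same-numbered mice 1 to 4 share a labelled age, the labels name no shared litter or batch, and 2 to 5 of 6 pairs correlated above 0.1. With a block of the same age they were 325 in deep brain glutamatergic, 0 in deep brain GABAergic and 94 in cortical GABAergic neurons. Mice 1 to 3 alone gave 0, 0 and, in cortical GABAergic neurons, 19, and mice 4 to 6 alone 0, 0 and 14 in the deep brain and 2 in cortical astrocytes. Classes set from marker UMIs gave 0, 19 and 178 in the deep brain and 6 in cortical astrocytes, and deeper cortical libraries alone 28. Without doublets deep brain GABAergic neurons had 0. Added after the data were seen, striatal neurons alone gave 12 and the rest 0. Without 1 library the counts ran 0 to 385 (385 without control 3, 338 without mutant 4, 122 without control 2), 0 to 11, 348 to 1062, 0 to 2, 0 to 1, 64 to 196 and 106 to 502.

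The log2 differences of the 10 genes were below 0 in 210 of 210 alternatives in glutamatergic and 225 of 230 in GABAergic neurons and 120 of 126 in astrocytes of the deep brain, in 220 of 230, 200 of 229 and 41 of 46 in the cortex, and in 137 of 153 in oligodendrocytes. The alternatives refit the same libraries on which the genes were chosen, so nothing is read from these counts. In glutamatergic neurons, none of them held the kinds of neuron fixed. Homer1 in oligodendrocytes ran from -0.003009 (without mutant 1) to 0.07405 (without mutant 6). Egr1 in oligodendrocytes was not called with either block (adjusted p = 0.065 and 0.0822). In cortical astrocytes the alternatives that lost Grin2b included both depth groups. The 10 genes summed to 514.5, 441.8 and 125 CPM in the deep brain and 1197, 627.1 and 217.9 in the cortex. In glutamatergic neurons, Homer1 alone made up 249.6 of the 514.5 and 595.7 of the 1197 CPM. Classes from marker UMIs gave sums of 213.2 in deep brain astrocytes and 913.9, 489 and 454.8 in the cortex. Without 1 library the sums ran 469.2 to 551.9, 417.7 to 460.6, 119.9 to 131.5, 1160 to 1225, 607.7 to 657.8 and 210.3 to 226.6. Thinning moved 48 of 60 shares of nuclei with a UMI, since it lowers the depth. In astrocytes 4 genes were too low for a fit in the deep brain and 8 in the cortex, where most libraries held few astrocytes.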
